A study of Mus musculus with 28 samples.

Results

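The proteasome is the main protein-degrading machine of the cell, and 49 genes of the proteasome system were followed here through macrophages in which the Nrf2 pathway was removed or released. The genes were taken by their symbols in the probe annotation: every symbol starting with Psma, Psmb, Psmc, Psmd, Psme or Psmg, plus Pomp, with the brightest probe set over all 28 arrays standing for each gene. They were 49 of 18193 measured genes and were covered by 100 probe sets. They held 14 constitutive 20S subunits, 3 immunoproteasome subunits and 17 subunits of the 19S particle. The other 15 were 5 chaperones that assemble the 20S core (Pomp and Psmg1 to Psmg4), 3 that assemble the 19S base (Psmd5, Psmd9 and Psmd10), 3 activators (Psme1, Psme3 and Psme4), 2 tissue-specific core subunits (Psma8 of testis and Psmb11 of thymus), and 2 genes that share the prefix without encoding a proteasome protein (Psmc3ip and Psme3ip1). Psme2, the partner of Psme1, is measured by a probe set that also lists another gene and is not reported.

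The 20S core is a barrel of alpha and beta rings, and its proteolytic sites lie in the beta subunits Psmb5 (chymotrypsin-like), Psmb6 (caspase-like) and Psmb7 (trypsin-like). Interferon induces the immunoproteasome subunits Psmb8, Psmb9 and Psmb10, which take the places of Psmb5, Psmb6 and Psmb7 in new cores and shift cleavage towards peptides suited to MHC class I. The 19S particle recognises ubiquitylated proteins, removes the ubiquitin, and unfolds and feeds the chain into the core with a ring of ATPases (Psmc1 to Psmc6). Nrf1 (Nfe2l1) is the transcription factor best known for raising all subunits together when proteasome capacity falls, and Nrf2 (Nfe2l2), which Keap1 marks for degradation, is known to raise some of them under oxidative stress.

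RNA came from bone marrow-derived macrophages of C57BL/6 J mice aged 12 weeks and was measured on Affymetrix arrays in 7 groups of 4, which the design text calls biological replicates. The compound experiment (16 arrays) held cells of genotype Nrf2-/- (KO) with RA839, KO cells with DMSO, cells of genotype Nrf2+/+ (WT) with RA839, and WT cells with DMSO, each after 4 h and with DMSO at 0.2%. RA839 is a small molecule that binds Keap1. The siRNA experiment (12 arrays) held WT cells with siKeap1-1, with siKeap1-2, both siRNAs against Keap1, or with siControl. The sources used here do not give the RA839 dose, the sequences of the siRNAs or how long after transfection cells were taken, and the design text writes RA838 once where the labels write RA839. In RNA from whole cultures, fewer cells of a type and less RNA per cell cannot be told apart.

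Levels are log2 RMA values. Changes are given on the log2 scale with the standard error of the fit (4 arrays in each group), and adjusted p-values come from limma over all 18193 genes, with 0.05 as the threshold. The targeted genes matched the labels. Nfe2l2 lay between 3.18 and 3.38 in KO RA839 and between 3.27 and 3.52 in KO DMSO, against 11.85 to 12.58 in WT RA839 and 12.48 to 12.96 in WT DMSO. Keap1 lay between 8.93 and 9.13 with siKeap1-1 and between 9.15 and 9.47 with siKeap1-2, against 10.94 to 11.16 with siControl. Of 9 macrophage markers, 2 rose and 2 fell in KO cells relative to WT cells in DMSO, and 4 were lower with siKeap1-1 and 3 with siKeap1-2. Of all genes, 11.2% were higher and 13.8% lower in KO cells in DMSO, and 6.39% were lower with siKeap1-1 and 4.89% with siKeap1-2. The summed linear levels of the macrophage markers were 96239 to 100019 with siKeap1-1 and 95379 to 98362 with siKeap1-2, against 103811 to 107244 with siControl. The summed levels of 9 neutrophil and precursor markers were 2055 to 3021 in KO DMSO against 4465 to 4936 in WT DMSO. With RA839 they were 1870 to 2424 in KO and 3202 to 4390 in WT cells, the latter wholly below WT DMSO. These neutrophil sums rest mostly on S100a8, which read 10.83 to 11.11 in KO DMSO against 11.81 to 12.10 in WT DMSO. They do not speak for all 9 markers: Mpo, for example, read 4.04 to 4.80 against 4.19 to 4.63. The part of these shifts in the results below was not tested.

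Some arrays stood apart before any comparison. On WT RA839 array 2 the 3' probe set of the Gapdh control exceeded the 5' one by 3.74 on the log2 scale, against 0.77 to 1.00 on the other compound arrays and 0.73 to 0.88 on the siRNA arrays. That array gave the lowest value of its group for 32 of the 49 genes, with a median of -0.22 relative to its 3 companions, whereas over all genes it was lowest for 31.9%. Pomp read 12.35 there against 13.33 to 13.36, Psme1 11.59 against 12.74 to 12.82, and Psmd7 7.63 against 8.64 to 8.72. Counts of calls among the 49 genes that hold this array are given with and without it, as are values of several of the genes most affected. Counts for other gene lists and for all genes in the compound experiment are given only with it. In KO cells, arrays 1 and 2 differed from arrays 3 and 4 under either treatment: the 19S subunits averaged -0.14 and -0.17 against 0.11 and 0.08 with RA839, and -0.14 and -0.17 against 0.09 and 0.06 with DMSO, relative to WT DMSO. The labels do not say what same-numbered arrays share.

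**Figure D1:**
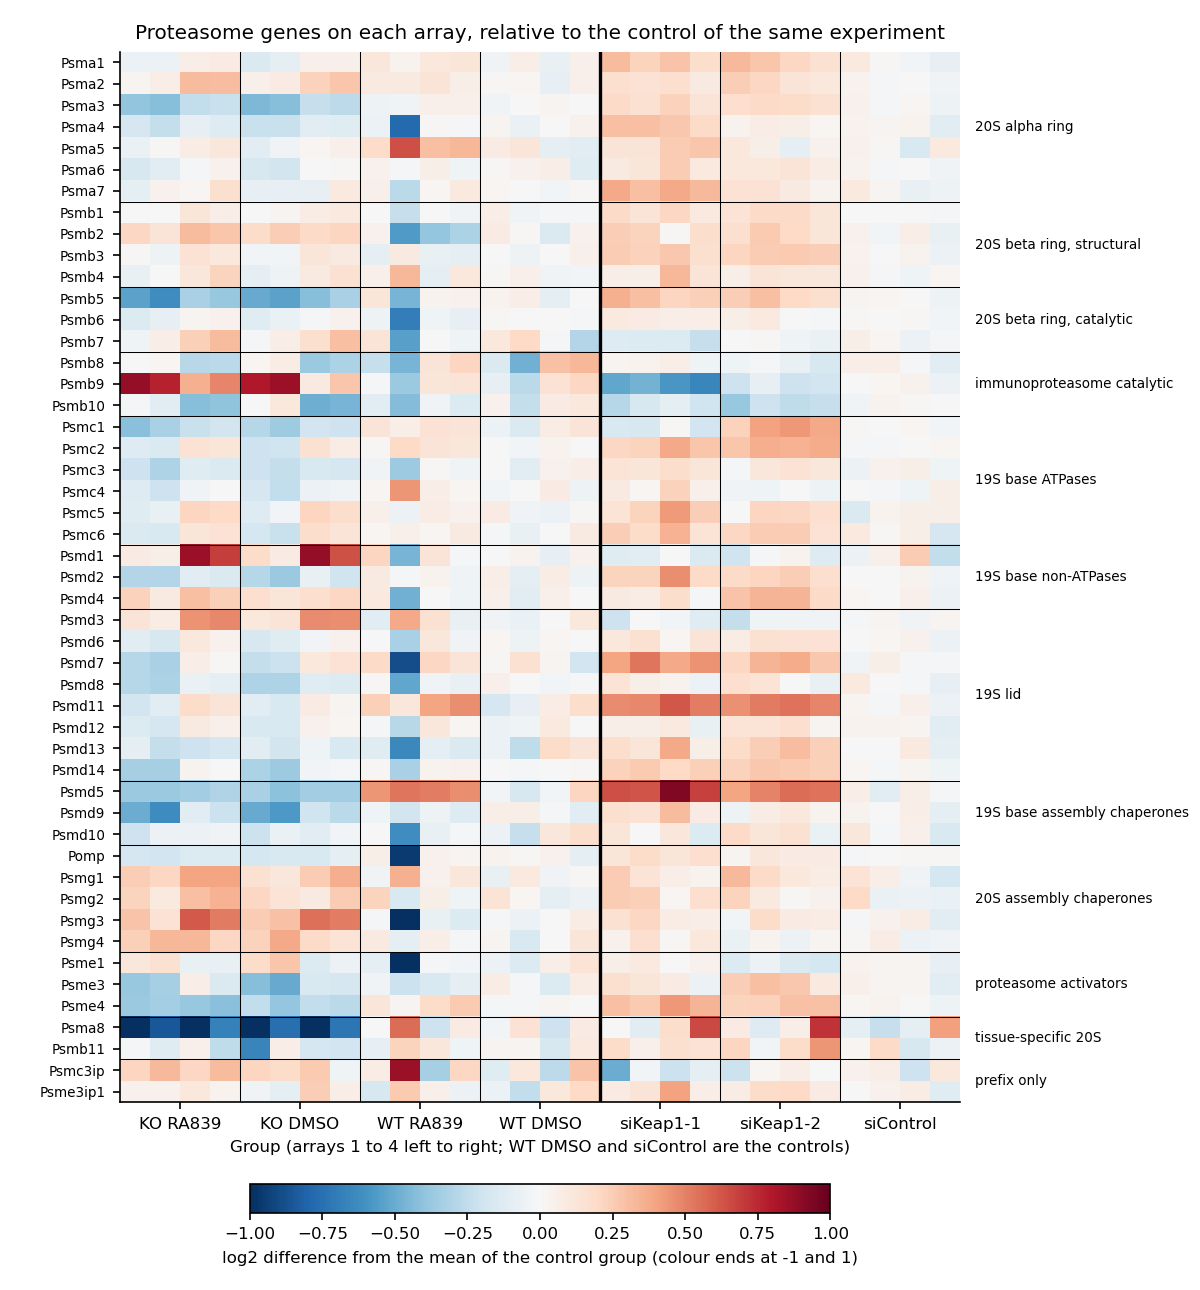
Each row is a gene of the proteasome system and each column an array. Colour gives the log2 difference from the mean of the control group of the same experiment (WT DMSO or siControl). The siKeap1-1 and siKeap1-2 columns are mostly above 0, with Psmb9, Psmb10 and Psmd3 among the rows below it, Psmd5 is below 0 in KO columns, and WT RA839 array 2 differs from its 3 companions.

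Promoters of 4 genes are shown first, since the motif bound by Nrf2 with small Maf proteins has a simple core, TGACNNNGC. RefSeq promoter windows of build GRCm38.p6 hold 250 bases before and 50 after each start, and 41 of the 49 genes matched. The core was searched on both strands and is in capitals where it occurs. Psmd5 and Psmd11 were chosen for their rises after Keap1 siRNA, and Psme4 and Psmb5 because they were lower in KO cells, higher after Keap1 siRNA and have the motif. Psmd5 (chr2:34870913-34871212, minus strand) and Psmd11 (chr11:80428365-80428664, plus strand) held no match, and Psme4 (chr11:30771525-30771824, plus strand) and Psmb5 (chr14:54617946-54618245, minus strand) held 1 each.
Psmd5: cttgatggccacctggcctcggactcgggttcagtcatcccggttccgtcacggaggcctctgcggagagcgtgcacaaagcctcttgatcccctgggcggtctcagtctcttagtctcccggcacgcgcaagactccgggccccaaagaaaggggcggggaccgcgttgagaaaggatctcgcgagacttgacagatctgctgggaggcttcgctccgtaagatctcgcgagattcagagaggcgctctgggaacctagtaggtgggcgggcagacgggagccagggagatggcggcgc
Psmd11: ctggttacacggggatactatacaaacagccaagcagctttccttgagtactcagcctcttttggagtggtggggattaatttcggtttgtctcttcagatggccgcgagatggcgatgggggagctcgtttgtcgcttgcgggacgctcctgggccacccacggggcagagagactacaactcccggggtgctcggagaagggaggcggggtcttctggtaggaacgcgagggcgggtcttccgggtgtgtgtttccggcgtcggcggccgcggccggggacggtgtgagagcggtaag
Psme4: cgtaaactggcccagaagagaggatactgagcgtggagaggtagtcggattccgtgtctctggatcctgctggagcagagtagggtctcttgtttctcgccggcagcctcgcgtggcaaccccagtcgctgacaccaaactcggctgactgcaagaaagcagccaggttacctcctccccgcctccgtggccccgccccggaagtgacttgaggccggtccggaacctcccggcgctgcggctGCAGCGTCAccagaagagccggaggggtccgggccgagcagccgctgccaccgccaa
Psmb5: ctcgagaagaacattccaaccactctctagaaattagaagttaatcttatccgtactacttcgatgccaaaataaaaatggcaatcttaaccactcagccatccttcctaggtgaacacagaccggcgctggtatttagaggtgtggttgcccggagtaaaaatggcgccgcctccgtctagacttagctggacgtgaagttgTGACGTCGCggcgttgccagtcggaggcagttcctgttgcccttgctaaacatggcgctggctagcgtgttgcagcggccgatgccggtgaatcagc

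The core occurred in 6 of the 41 genes (14.6%): Psmb5, Psmb6, Psmc6, Psmd9, Psmd12 and Psme4. Over all 27025 genes with a window the share was 14%, so the proteasome windows held it about as often as any. No match says only that these letters are not in this window. The AP-1 type letters TGACTCA or TGAGTCA, a related site, occurred in 1 gene (Psmd9, 2.44%) against 5.95% of all genes. An interferon response type motif, GAAA and again GAAA with any 2 bases between them, occurred in 5 genes (12.2%), Psmb3, Psmd4, Psmd9, Psmg4 and Psme1, against 3.99% of all genes, and in none of Psmb8, Psmb9 and Psmb10. The STAT-type letters TTCNNNGAA occurred in 3 genes (7.32%), Psmb8, Psmd2 and Psmg1, against 9.55% of all genes.

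After Keap1 knockdown, 14 of the 31 constitutive 20S and 19S subunits were higher with siKeap1-1 and 14 with siKeap1-2, while 1 was lower with siKeap1-1 and 0 with siKeap1-2. Of the 3 immunoproteasome subunits, 1 was lower with each siRNA and none was higher. Both siRNAs were compared with the same 4 siControl arrays, so their results are not independent of each other. With siKeap1-1, 17 of 49 genes were higher (34.7%) and 2 were lower (4.08%) than with siControl, where 8.67% of all genes were higher and 6.39% lower. With siKeap1-2, 17 were higher (34.7%) and 1 was lower (2.04%), where 6.32% of all genes were higher and 4.89% lower. The siKeap1-2 count rested on the choice of probe set: 7 of 49 genes were higher with the mean over all probe sets of a gene, and 7 of 43 without probe sets that can match several transcripts, where siKeap1-1 gave 13 and 12. Of the genes said below not to pass, 12 with siKeap1-1 and 8 with siKeap1-2 passed in at least 1 alternative setting. Among the 2279 genes at least as bright as the first quartile of the 20S and 19S subunits, 8.78% were higher with siKeap1-1 and 7.63% with siKeap1-2. The sizes were modest: the 20S and 19S subunits had a median change of 0.16 with siKeap1-1 and 0.16 with siKeap1-2, against 0.02 and 0.03 for all genes.

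The spread over arrays was smaller than these shifts for whole classes. Averaged over its 14 genes and taken relative to siControl, the constitutive 20S lay at 0.14 to 0.20 on siKeap1-1 arrays and 0.09 to 0.16 on siKeap1-2 arrays, against -0.03 to 0.04 on siControl arrays. The 19S subunits lay at 0.11 to 0.23 and 0.13 to 0.22, against -0.05 to 0.04. The 3 immunoproteasome subunits lay at -0.30 to -0.20 and -0.21 to -0.10, against -0.06 to 0.04. None of these ranges overlapped with that of siControl. The immunoproteasome average hides unlike genes: with siKeap1-1 Psmb9 changed by -0.56, Psmb10 by -0.18 and Psmb8 by 0.02. With siKeap1-2 the same genes changed by -0.17, -0.27 and -0.07.

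Psmd5, a chaperone that holds ATPases of the base during assembly of the 19S particle, had the largest rise of the 49 genes with siKeap1-1. It read 11.10, 11.08, 11.38 and 11.14 with siKeap1-1 and 10.85, 10.95, 11.01 and 11.00 with siKeap1-2, against 10.52, 10.35, 10.51 and 10.44 with siControl. Every array of either knockdown was above every control array. The change was 0.72 ± 0.07 (adjusted p = 6.34e-05) with siKeap1-1 and 0.50 ± 0.07 (adjusted p = 0.00105) with siKeap1-2, which is 1.65-fold and 1.41-fold. The other base chaperones did not pass: Psmd9 changed by 0.17 ± 0.06 and 0.04 ± 0.06, and Psmd10 by 0.02 ± 0.08 and 0.10 ± 0.08. With the replicate number as a block, Psmd9 passed with siKeap1-1 (adjusted p = 0.0282).

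Psmd11, a lid subunit of the 19S particle known from stem cells for raising proteasome activity, followed closely. Its arrays read 12.79, 12.80, 12.94 and 12.83 with siKeap1-1 and 12.78, 12.84, 12.86 and 12.81 with siKeap1-2, against 12.35, 12.30, 12.37 and 12.26 with siControl. The groups were well apart, and the change was 0.52 ± 0.05 (adjusted p = 4.57e-05) and 0.50 ± 0.05 (adjusted p = 6.94e-05). A further 4 probe sets of this gene with means between 7.75 and 10.97 rose by 0.42 to 0.74 with siKeap1-1 and by 0.40 to 0.76 with siKeap1-2.

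Of the 8 lid subunits, 3 rose with siKeap1-1 and 4 with siKeap1-2, and none fell. Besides Psmd11, Psmd7 rose by 0.44 ± 0.05 and 0.29 ± 0.05. The Psmd7 calls held in 16 of 17 alternatives with each siRNA, with estimates down to 0.19 and 0.13. Psmd14, the deubiquitylase of the lid, rose by 0.23 ± 0.04 and 0.25 ± 0.04. Psmd13 rose by 0.25 ± 0.07 with siKeap1-2 (adjusted p = 0.0462) and changed by 0.18 ± 0.07 with siKeap1-1 (adjusted p = 0.113, or 0.0263 with the block). Psmd3, Psmd6, Psmd8 and Psmd12 did not pass with either siRNA, with changes between -0.09 and 0.10 and between -0.09 and 0.13. With siKeap1-2, Psmd12 passed under the block (adjusted p = 0.0474) and Psmd6 with a trended and robust prior (adjusted p = 0.0344).

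In the base of the 19S particle, 3 of 6 ATPases rose with siKeap1-1 and 2 with siKeap1-2. Psmc2 rose with either siRNA, by 0.27 ± 0.05 and 0.34 ± 0.05. Psmc5 (0.25 ± 0.08, adjusted p = 0.0462) and Psmc6 (0.23 ± 0.07, adjusted p = 0.038) rose with siKeap1-1, while with siKeap1-2 they changed by 0.14 ± 0.08 and 0.22 ± 0.07, and Psmc6 passed there under the block (adjusted p = 0.0114). Psmc3 and Psmc4 changed by 0.14 ± 0.05 and 0.10 ± 0.05 with siKeap1-1 and by 0.09 ± 0.05 and -0.03 ± 0.05 with siKeap1-2, and Psmc3 passed with siKeap1-1 under the block (adjusted p = 0.0402). Of the 3 non-ATPases of the base, Psmd2, a scaffold, rose by 0.28 ± 0.06 and 0.21 ± 0.06. The Psmd2 calls held in 16 of 17 alternatives with siKeap1-1 and 6 of 17 with siKeap1-2, with estimates down to 0.10 and 0.09. Psmd4, a ubiquitin receptor, changed by 0.09 ± 0.06 with siKeap1-1 (adjusted p = 0.383) and rose by 0.29 ± 0.06 with siKeap1-2 (adjusted p = 0.0066). Psmd1 changed by -0.10 ± 0.10 and -0.08 ± 0.10.

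Psmc1 differed between the siRNAs. It read 11.55, 11.54, 11.71 and 11.51 with siKeap1-1 and 11.93, 12.10, 12.13 and 12.08 with siKeap1-2, against 11.71, 11.70, 11.72 and 11.67 with siControl. Only the siKeap1-2 arrays lay above the controls. The rise with siKeap1-2 was 0.36 ± 0.06 (adjusted p = 0.00234), the change with siKeap1-1 was -0.12 ± 0.06 (adjusted p = 0.221), and siKeap1-1 was lower than siKeap1-2 by -0.48 ± 0.06 (adjusted p = 0.00063). The mean over the probe sets of Psmc1 gave 0.16 with siKeap1-2 (adjusted p = 0.116).

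In the alpha ring of the core, 4 of 7 subunits rose with siKeap1-1 and 3 of 7 with siKeap1-2. Psma7 rose by 0.34 ± 0.05 (adjusted p = 0.00116) and Psma4 by 0.26 ± 0.05 (adjusted p = 0.00444) with siKeap1-1, whereas with siKeap1-2 they changed by 0.10 ± 0.05 and 0.04 ± 0.05, and siKeap1-1 was higher than siKeap1-2 by 0.24 ± 0.05 (adjusted p = 0.0189) and 0.22 ± 0.05 (adjusted p = 0.0232). Psma1 (0.25 ± 0.06 and 0.24 ± 0.06) and Psma3 (0.18 ± 0.05 and 0.17 ± 0.05) rose with either, although the other probe sets of Psma1, all near 6, changed by between -0.32 and 0.37. The Psma3 calls held in 12 of 17 alternatives with siKeap1-1 and 9 of 17 with siKeap1-2, with estimates down to 0.06 and 0.01. Psma2 changed by 0.14 ± 0.05 with siKeap1-1 and rose by 0.17 ± 0.05 with siKeap1-2. Psma5 and Psma6 did not pass with either siRNA, at 0.20 ± 0.07 and 0.14 ± 0.05 with siKeap1-1. There Psma5 passed in 4 of 17 alternatives (adjusted p of 0.0298 with the mean over its probe sets), Psma6 in 3 of 17 and Psma2 in 4 of 17 (adjusted p of 0.0435 and 0.0309 under the block). Of the 4 structural beta subunits, Psmb3 (0.23 ± 0.05 and 0.24 ± 0.05) and Psmb1 (0.15 ± 0.05 and 0.16 ± 0.05) rose. The Psmb1 calls (adjusted p = 0.0413 and 0.0462) held in only 7 of 17 alternatives with each siRNA, with estimates down to 0.11 and 0.05. Psmb2 and Psmb4 changed by 0.16 ± 0.06 and 0.15 ± 0.06 with siKeap1-1 and by 0.19 ± 0.06 and 0.10 ± 0.06 with siKeap1-2.

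Among the constitutive catalytic subunits, Psmb5 rose with either siRNA. Psmb5 read 13.72, 13.66, 13.58 and 13.60 with siKeap1-1 and 13.61, 13.66, 13.56 and 13.52 with siKeap1-2, against 13.39, 13.38, 13.37 and 13.31 with siControl. All knockdown arrays exceeded all control arrays, by 0.28 ± 0.05 (adjusted p = 0.0036) and 0.22 ± 0.05 (adjusted p = 0.0159). Psmb6 changed by 0.08 ± 0.04 and 0.04 ± 0.04, and Psmb7 fell by 0.16 (SE 0.05, adjusted p = 0.0435) with siKeap1-1 and changed by -0.03 ± 0.05 with siKeap1-2.

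**Figure D2:**
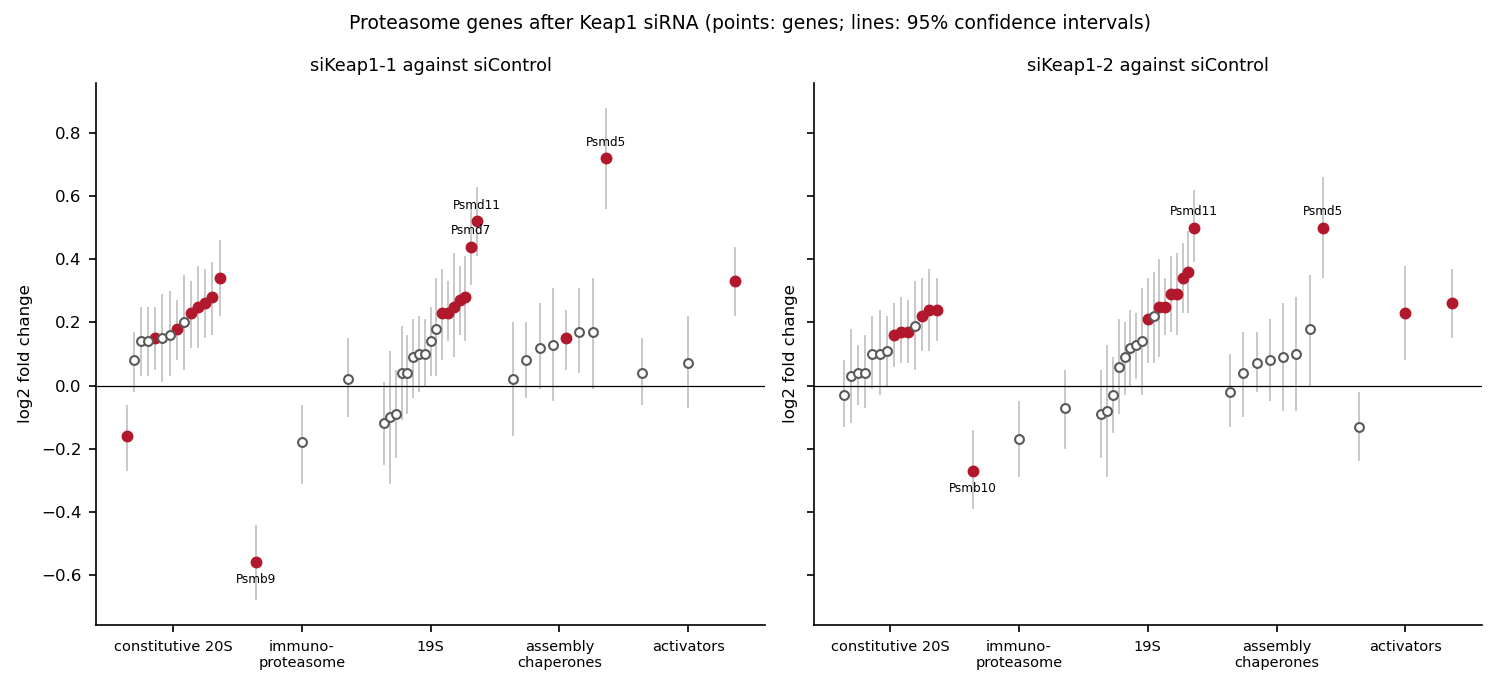
Log2 fold change of genes after siKeap1-1 (left) and siKeap1-2 (right) against siControl, ordered by size within their class. The tissue-specific core subunits and the genes that only share the prefix are not drawn. Red points passed the threshold, open points did not, and lines are 95% confidence intervals. Psmd5 (0.72 and 0.50) and Psmd11 (0.52 and 0.50) stand highest, and Psmb9 (-0.56) and Psmb10 (-0.27) lowest.

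Of the 3 immunoproteasome subunits, Psmb9 fell with siKeap1-1 and Psmb10 with siKeap1-2, and Psmb8 did not pass with either. Psmb9 read 10.60, 10.65, 10.54 and 10.47 with siKeap1-1 and 10.91, 11.04, 10.91 and 10.93 with siKeap1-2, against 11.12, 11.14, 11.16 and 11.06 with siControl. Both knockdowns lay wholly below the controls and siKeap1-1 wholly below siKeap1-2. Psmb9 fell by 0.56 (SE 0.06, adjusted p = 4.36e-05) with siKeap1-1 and changed by -0.17 ± 0.06 with siKeap1-2, which did not pass (adjusted p = 0.0684). That value was 0.0253 with the replicate number as a block, 0.0328 with array weights and 0.023 among genes at or above the median gene. The difference between the siRNAs was -0.39 ± 0.06 (adjusted p = 0.00153).

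Psmb10 read 12.13, 12.26, 12.33 and 12.22 with siKeap1-1 and 12.04, 12.21, 12.16 and 12.19 with siKeap1-2, against 12.38, 12.45, 12.43 and 12.41 with siControl. All knockdown arrays were below the controls. Psmb10 fell by 0.27 (SE 0.06, adjusted p = 0.0104) with siKeap1-2 and changed by -0.18 ± 0.06 with siKeap1-1 (adjusted p = 0.0515, but past the threshold in 5 of 17 alternatives). Psmb8 changed by 0.02 ± 0.06 and -0.07 ± 0.06. Within each array, and relative to siControl, the level of Psmb9 minus that of Psmb6 lay at -0.72 to -0.56 with siKeap1-1 and -0.27 to -0.17 with siKeap1-2, and Psmb8 minus Psmb5 at -0.32 to -0.15 and -0.32 to -0.27. Psmb10 minus Psmb7 averaged -0.02 ± 0.09 and -0.24 ± 0.09 (SD, n = 4).

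Genes of antigen processing and interferon responses were followed beside them. Of 16, none was higher and 2 were lower with siKeap1-1, and none was higher and 5 were lower with siKeap1-2. Over all genes, 8.67% were higher and 6.39% lower with siKeap1-1, and 6.32% and 4.89% with siKeap1-2. Ifit1 and Ifit3, interferon-induced antiviral genes, fell by 0.51 and 0.53 with siKeap1-1 and by 0.60 and 0.56 with siKeap1-2 (SE 0.15 each). Gbp2 and Gbp3, interferon-induced GTPases, fell by 0.54 and 0.41 with siKeap1-2, and Nlrc5, the activator of MHC class I genes, fell by 0.22. Their part in the values of Psmb9 and Psmb10 was not tested.

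Of the 5 assembly chaperones of the core, 1 rose with siKeap1-1 and none passed with siKeap1-2, and of the 3 activators 1 rose with siKeap1-1 and 2 with siKeap1-2. Pomp, which closes the maturing core, read 13.80, 13.86, 13.80 and 13.85 with siKeap1-1 and 13.71, 13.79, 13.76 and 13.76 with siKeap1-2, against 13.66, 13.68, 13.69 and 13.69 with siControl. It rose by 0.15 ± 0.04 with siKeap1-1 (adjusted p = 0.0385, past the threshold in 8 of 17 alternatives) and changed by 0.07 ± 0.04 with siKeap1-2. Psmg1 to Psmg4 changed by 0.08 to 0.17 and by -0.02 to 0.18, and none passed. Under the block Psmg2 passed with siKeap1-1 (adjusted p = 0.0424, or 0.0377 with array weights) and Psmg1 with siKeap1-2 (adjusted p = 0.0158), as did the dim probe set of Psma8 with either (0.18, adjusted p = 0.0321, and 0.19, adjusted p = 0.0317). Psme4, the single-chain activator of nuclear and testis proteasomes, read 12.75, 12.71, 12.88 and 12.79 with siKeap1-1 and 12.67, 12.68, 12.74 and 12.74 with siKeap1-2, against 12.47, 12.48, 12.44 and 12.40 with siControl. All knockdown arrays were above the controls, by 0.33 ± 0.05 (adjusted p = 0.000965) and 0.26 ± 0.05 (adjusted p = 0.00633). The next brightest probe set of Psme4 changed by 0.30 ± 0.07 and 0.20 ± 0.07, and the mean over its 6 probe sets, 3 of them dim, by 0.07 and 0.02. Psme3, whose product caps nuclear cores, changed by 0.07 ± 0.07 with siKeap1-1 and rose by 0.23 ± 0.07 with siKeap1-2 (adjusted p = 0.0465), where its second probe set of like brightness changed by -0.00 ± 0.09. Psme1, an interferon-induced activator subunit, changed by 0.04 ± 0.05 and -0.13 ± 0.05.

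Outside the subunits, 2 of 16 regulators and ubiquitin system genes were higher and 1 was lower with siKeap1-1, and 3 were higher and 1 was lower with siKeap1-2. For all genes the shares were 8.67% higher and 6.39% lower with siKeap1-1, and 6.32% and 4.89% with siKeap1-2. Ecpas, which binds assembled proteasomes, rose by 0.72 ± 0.07 and 0.74 ± 0.07. Sqstm1, a ubiquitin receptor of autophagy and a known Nrf2 target, rose by 0.31 ± 0.05 and 0.36 ± 0.05. Vcp, the segregase that pulls ubiquitylated proteins from complexes, rose by 0.40 ± 0.09 and Usp14, a proteasome-bound deubiquitylase, fell by 0.39 (SE 0.08), both with siKeap1-2. Nfe2l1 fell by 0.23 (SE 0.05, adjusted p = 0.00519) with siKeap1-1 and changed by -0.05 ± 0.05 with siKeap1-2. The inhibitor Psmf1 changed by 0.15 ± 0.10 and 0.33 ± 0.10, neither past the threshold. Nqo1, the usual readout of Nrf2, rose by 1.38 ± 0.13 and 1.28 ± 0.13. Nfe2l2 itself fell by 0.48 and 0.32 (SE 0.05 each) as Keap1 fell by 2.03 and 1.83 (SE 0.08 each).

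Between the siRNAs, 2 of 49 genes were higher with siKeap1-1 (Psma4 and Psma7) and 2 lower (Psmb9 and Psmc1), where 3.57% of all genes were higher and 3.88% lower. With the replicate number as a block the count was 8, adding Psmd4 (-0.20), Psmd5 (0.22), Psme1 (0.18) and Psme3 (-0.16). Whichever of the 8 arrays was left out, 13 of the 19 calls for siKeap1-1, 10 of the 18 for siKeap1-2 and 2 of the 4 between the siRNAs (Psmb9 and Psmc1) passed. SiControl array 4 gave the lowest value of its group for 32 of the 49 genes, and for 36.1% of all genes. Without it, 12 genes were higher and 1 lower with siKeap1-1, and 10 higher and 1 lower with siKeap1-2. For siKeap1-2 the count of calls fell to 11 without siControl array 2, to 11 without siKeap1-2 array 1 and to 10 without siKeap1-2 array 2.

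**Figure D3:**
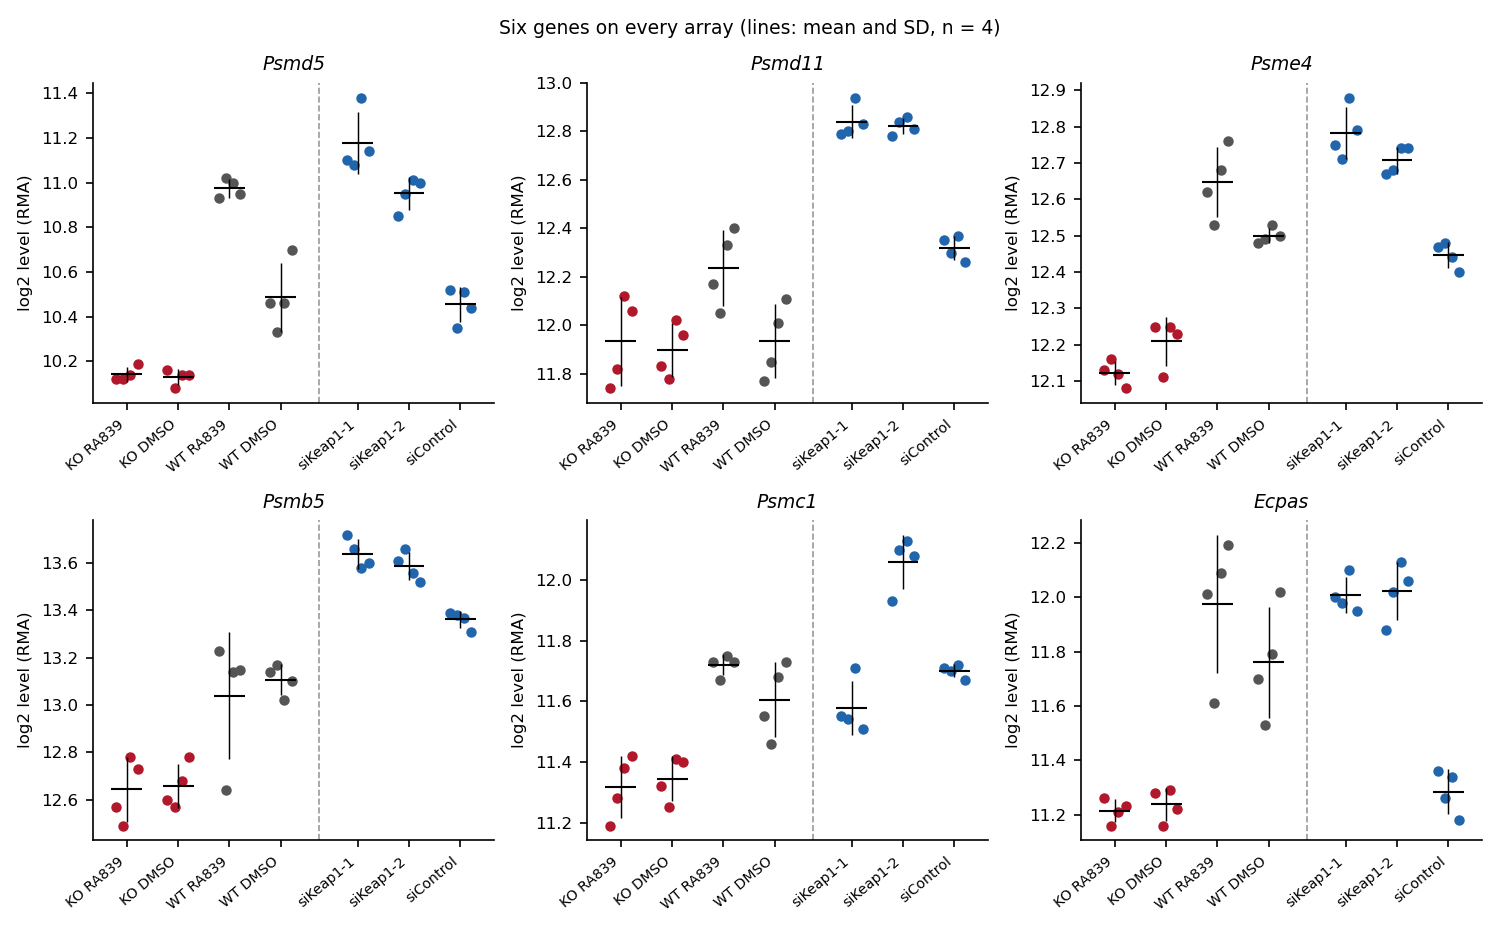
Log2 level of 5 proteasome genes and Ecpas on each array, with the group mean and SD (n = 4). The dashed line separates the compound experiment, KO (red) and WT (grey), from the siRNA experiment (blue), which may have been normalized apart. Psmd5 is higher in WT RA839 than in WT DMSO and level between the KO groups, and Psmc1 is raised with siKeap1-2 alone.

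After 4 h of RA839, 1 of the 49 genes was higher and none was lower in WT cells. Psmd5 read 10.93, 11.02, 11.00 and 10.95 in WT RA839, against 10.46, 10.33, 10.46 and 10.70 in WT DMSO. The groups did not overlap, and the change was 0.48 ± 0.08 (adjusted p = 0.00484), or 1.4-fold. It was the only gene of 49 past the threshold (2.04%), where 0.572% of all genes were higher and 0.0879% lower. The median change of the 20S and 19S subunits was -0.03. Nqo1, by comparison, rose by 0.63 ± 0.12 (adjusted p = 0.019).

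WT RA839 array 2 bears on this comparison, and leaving it out kept Psmd5 as the single call. With the replicate number as a block, which pairs arrays within a genotype, 3 genes were called, adding Psma5 (0.36, adjusted p = 0.0393) and Psmd11 (0.30, adjusted p = 0.0424). Psma5 read 12.57, 13.03, 12.69 and 12.72 in WT RA839, against 12.47, 12.51, 12.29 and 12.28 in WT DMSO, and its highest value was on array 2. Psmd11 read 12.17, 12.05, 12.33 and 12.40, against 11.77, 11.85, 12.01 and 12.11. Its groups overlapped, but each RA839 array exceeded the DMSO array of the same number. When only the 8 WT arrays entered the fit, no gene passed (Psmd5, adjusted p = 0.11), and without WT RA839 array 1 Psmb2 was called lower (-0.42, adjusted p = 0.0387).

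No catalytic subunit passed with RA839 in WT cells. Psmb5, Psmb6 and Psmb7 changed by -0.07 ± 0.12, -0.21 ± 0.12 and -0.11 ± 0.14, or without WT RA839 array 2 by 0.06 ± 0.08, -0.05 ± 0.06 and 0.03 ± 0.12. Psmb8, Psmb9 and Psmb10 changed by -0.09 ± 0.19, -0.03 ± 0.18 and -0.18 ± 0.15, or without that array by 0.04 ± 0.19, 0.08 ± 0.19 and -0.10 ± 0.15. Pomp changed by -0.21 ± 0.17 and Psme1 by -0.35 ± 0.21, against 0.04 ± 0.06 and -0.05 ± 0.10 without array 2. These values were thus set in part by 1 array, and several turned sign without it. Psme4 read 12.62, 12.53, 12.68 and 12.76 in WT RA839, against 12.48, 12.49, 12.53 and 12.50 in WT DMSO, a change of 0.15 ± 0.07 that did not pass (adjusted p = 0.474). Neither Nfe2l1 (-0.08 ± 0.14) nor Psmf1 (0.07 ± 0.19) passed. None of 16 regulators and none of 16 interferon and antigen processing genes passed, where 0.572% of all genes were higher and 0.0879% lower. Keap1 changed by 0.33 ± 0.10 and Nfe2l2 by -0.42 ± 0.14 without passing.

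In KO cells, limma called none of the 49 genes between RA839 and DMSO, and also none of all genes (0%). At an unadjusted p under 0.05 there were 0 of the 49. The share of all genes at that threshold is not given here, so the 0 cannot be called particular to these genes. The changes lay between -0.09 and 0.15, and every other setting gave 0 calls as well. Psmd5 read 10.12, 10.12, 10.14 and 10.19 in KO RA839, against 10.16, 10.08, 10.14 and 10.14 in KO DMSO, a change of 0.01 ± 0.08. The named catalytic subunits, Psme1 and Pomp changed by between -0.04 and 0.12.

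The responses of the genotypes were compared directly as KO minus WT. None of the 49 genes passed, where 0.115% of all genes did, all lower. An unadjusted p under 0.05 was reached by 4 of the 49 (8.16%) and by 679 of 18193 genes (3.73%). The largest difference belonged to Psmd5, at -0.47 ± 0.11 (unadjusted p = 0.00052, adjusted p = 0.225). It passed with array weights (adjusted p = 0.0296) and without WT DMSO array 4 (adjusted p = 0.0339). Across 25 settings the estimate lay between -0.54 and -0.41 and the adjusted p between 0.0296 and 0.508. The named catalytic subunits differed by 0.06 to 0.22, Psme1 by 0.31 ± 0.30 and Pomp by 0.20 ± 0.24. Without WT RA839 array 2 those differences were -0.08 to 0.07 for the catalytic subunits, 0.01 ± 0.14 for Psme1 and -0.05 ± 0.08 for Pomp.

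Between genotypes, 10 of the 49 genes were called in DMSO and 13 under RA839. In DMSO, 9 genes were lower (18.4%) and 1 was higher (2.04%) in KO than in WT cells, where 13.8% of all genes were lower and 11.2% higher, so the share lower was near that of all genes. Under RA839, 8 were lower (16.3%) and 5 higher (10.2%), where 15.8% of all genes were lower and 14.6% higher. The median change of the 20S and 19S subunits was -0.04 in DMSO and -0.03 under RA839. Without WT RA839 array 2 the counts were 12 lower and 4 higher in DMSO, where the array enters only the estimate of the spread, and 10 lower and 6 higher under RA839. The Actb control's 3' minus 5' difference was 1.28 to 1.45 on KO arrays, against 1.68 to 2.04 on the WT arrays other than WT RA839 array 2, and its part in these differences was not tested.

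Psmd5 was lower in KO cells under either treatment, with the array values given above. In DMSO all 4 KO arrays lay below all 4 WT arrays, and Psmd5 fell by 0.36 (SE 0.08, adjusted p = 0.00328). Under RA839 it fell by 0.83 (SE 0.08, adjusted p = 1.51e-06), the lowest p of the 49 genes. Among the activators, Psme4 read 12.13, 12.16, 12.12 and 12.08 in KO RA839 and 12.25, 12.11, 12.25 and 12.23 in KO DMSO, against the WT values above. It fell by 0.52 (SE 0.07, adjusted p = 4.43e-05) under RA839 and by 0.29 (SE 0.07, adjusted p = 0.00585) in DMSO. The mean over all its probe sets gave -0.31 (adjusted p = 0.0758) and -0.14 (adjusted p = 0.453). Psme1 changed by 0.38 ± 0.21 under RA839 (0.08 ± 0.10 without WT array 2) and 0.07 ± 0.21 in DMSO, neither past the threshold.

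In the core, Psmb5 was the catalytic subunit that differed. It read 12.57, 12.49, 12.78 and 12.73 in KO RA839 and 12.60, 12.57, 12.68 and 12.78 in KO DMSO, against 13.23, 12.64, 13.14 and 13.15 in WT RA839 and 13.14, 13.17, 13.02 and 13.10 in WT DMSO. The DMSO groups did not overlap. Under RA839 they overlapped only through WT array 2. Psmb5 fell by 0.39 (SE 0.12, adjusted p = 0.0179) under RA839 and by 0.45 (SE 0.12, adjusted p = 0.00984) in DMSO, and with the 8 arrays alone the first of these did not pass (adjusted p = 0.0732). Without WT RA839 array 2 it was -0.53 (adjusted p = 0.000306). The call was also lost without WT RA839 array 1 or array 4 (adjusted p = 0.054 and 0.0508) or KO RA839 array 2 (adjusted p = 0.0558). Psmb6 and Psmb7 changed by 0.18 ± 0.12 and 0.26 ± 0.14 under RA839 (0.02 ± 0.06 and 0.12 ± 0.12 without that array) and by -0.04 ± 0.12 and 0.13 ± 0.14 in DMSO.

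The other core subunits split. Psma3 fell by 0.32 and 0.34 (SE 0.08 each), but a second and dim probe set read 0.39 and 0.46 in the opposite direction. Psma5 fell by 0.33 (SE 0.10) and Psmb2 rose by 0.54 ± 0.11 under RA839, while in DMSO they changed by -0.02 ± 0.10 and 0.21 ± 0.11. Psma8, the testis counterpart of an alpha subunit, was dim and fell by 1.05 and 0.98 (SE 0.17 each). Its probe set read 6.22, 6.57, 6.36 and 6.74 in KO RA839, against 7.41, 7.97, 7.21 and 7.50 in WT RA839. Psmb11, the thymus subunit, was dimmer still, between 3.41 and 4.93 on every array.

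In the 19S particle, Psmc1 and Psmd2 were lower in KO cells and Psmd4 higher under RA839. Psmc1 read 11.19, 11.28, 11.38 and 11.42 in KO RA839, against 11.73, 11.67, 11.75 and 11.73 in WT RA839, and fell by 0.40 (SE 0.08, adjusted p = 0.00147). In DMSO it fell by 0.26 (SE 0.08, adjusted p = 0.0267), a call lost without either KO DMSO array 1 or array 2 (adjusted p = 0.0616 and 0.0768) or WT DMSO array 3 or array 4 (adjusted p = 0.0732 and 0.0768). Psmd2 fell by 0.22 and 0.23 (SE 0.08 each) at adjusted p-values of 0.0477 and 0.0492, calls that held in 9 of 18 alternatives under RA839 and 10 of 19 in DMSO. Psmd4 rose by 0.32 ± 0.10 (adjusted p = 0.0305) under RA839, or by 0.19 ± 0.07 (adjusted p = 0.0464) without WT RA839 array 2, and changed by 0.17 ± 0.10 in DMSO. Its call was lost with the 8 arrays alone (adjusted p = 0.107) and without KO RA839 array 1, 3 or 4 (adjusted p = 0.0616, 0.0778 and 0.0662). No lid subunit passed with all arrays. Psmd1 had a wide spread that followed the array numbers, with 11.14, 11.11, 11.91 and 11.75 in KO RA839 and 11.24, 11.14, 11.93 and 11.69 in KO DMSO.

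Among the assembly chaperones of the core, Psmg3 and Psmg4 were higher in KO cells under RA839, and Psmg4 also in DMSO. Psmg3 read 11.06, 10.92, 11.39 and 11.30 in KO RA839 and 11.03, 11.07, 11.33 and 11.29 in KO DMSO, against 10.76, 9.69, 10.70 and 10.64 in WT RA839 and 10.76, 10.72, 10.78 and 10.85 in WT DMSO. No KO array overlapped with a WT array. Psmg3 rose by 0.72 ± 0.19 (adjusted p = 0.0096) under RA839, or by 0.47 ± 0.11 (adjusted p = 0.00591) without array 2 (0.0534 with the 8 arrays alone), and changed by 0.41 ± 0.19 in DMSO (adjusted p = 0.129, or 0.00836 with that array left out of the fit). Psmg4 rose by 0.26 ± 0.08 (adjusted p = 0.0212) under RA839, past the threshold in 16 of 18 alternatives, and by 0.24 ± 0.08 (adjusted p = 0.0425) in DMSO, past it in 9 of 19. Pomp read 13.14, 13.11, 13.17 and 13.17 in KO RA839, against 13.36, 12.35, 13.35 and 13.33 in WT RA839. The change was 0.05 ± 0.17 with all arrays and -0.20 (adjusted p = 0.0212) without array 2.

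Some genotype calls changed direction with the probe set. Psmd9 fell by 0.38 (SE 0.11, adjusted p = 0.0224) in DMSO on its brightest probe set, whereas its 2 dimmer ones read 0.89 and 0.78 higher in KO cells. Psme3 fell by 0.32 (SE 0.11, adjusted p = 0.0423) on a probe set with a mean of 10.56, and another with a mean of 10.43 read 0.46 ± 0.12 higher. No direction is therefore given for these 2 genes as genes, and they count as lower in DMSO by their brightest probe set alone. So does Psma3, whose second and dim probe set read the opposite way.

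**Figure D4:**
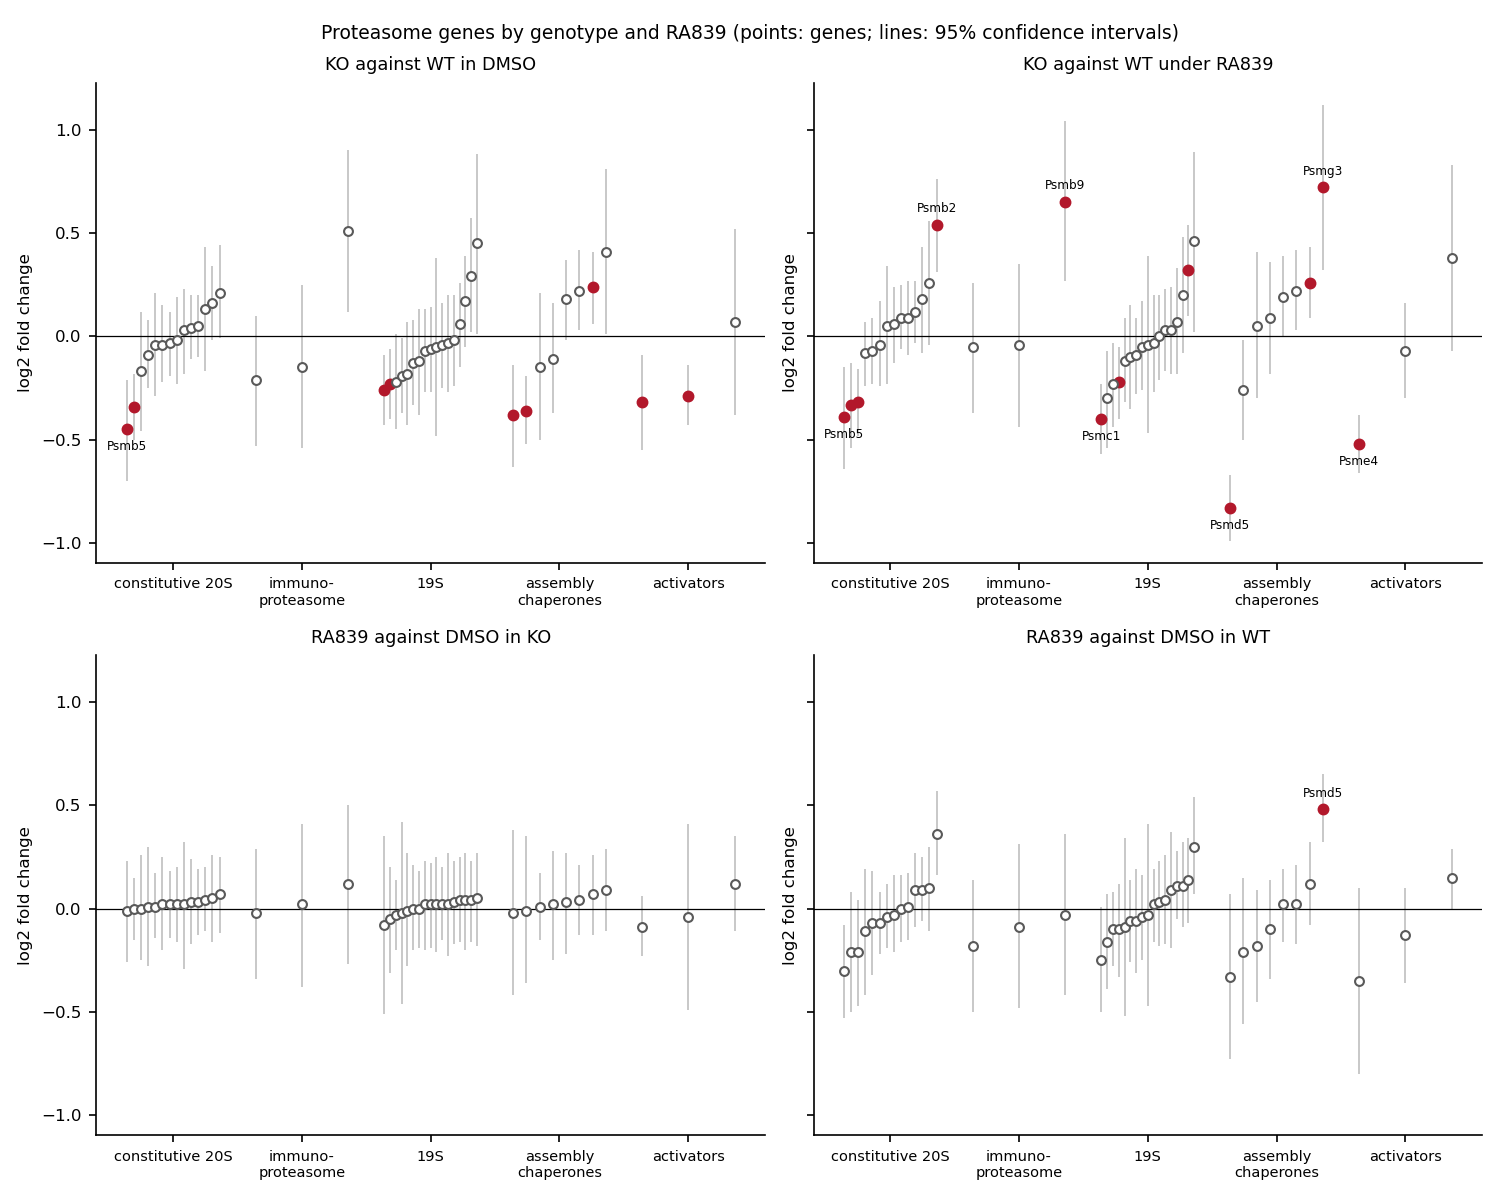
Log2 fold change of genes for KO against WT (top, DMSO left and RA839 right) and for RA839 against DMSO (bottom, KO left and WT right). Genes are ordered by size within their class. The tissue-specific core subunits and the genes that only share the prefix are not drawn. Psma8, called lower in KO cells in DMSO (-0.98) and under RA839 (-1.05), is therefore not among the red points. Red points passed the threshold and lines are 95% confidence intervals. The RA839 panel of KO cells is flat, and Psmd5 is the red point in WT cells.

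Psmb9 was the immunoproteasome subunit that differed by genotype. It read 11.09, 10.98, 10.57 and 10.70 in KO RA839 and 11.01, 11.07, 10.30 and 10.49 in KO DMSO, against 10.20, 9.84, 10.33 and 10.34 in WT RA839 and 10.13, 9.94, 10.36 and 10.42 in WT DMSO. KO arrays 1 and 2 were high. KO arrays 3 and 4 were lower, close to WT in DMSO but above every WT array under RA839. Psmb9 rose by 0.65 ± 0.18 (adjusted p = 0.0137) under RA839 and changed by 0.51 ± 0.18 in DMSO (adjusted p = 0.0534, with a range of 0.0193 to 0.155 over the alternatives). The level of Psmb9 minus that of Psmb6 was 1.02, 0.85, 0.33 and 0.44 in KO RA839 and 0.92, 0.94, 0.10 and 0.24 in KO DMSO, relative to WT DMSO.

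The other members of the group had the same split by array number. Psmb8 read 11.19, 11.22, 10.92 and 10.93 in KO RA839, against 10.97, 10.73, 11.33 and 11.41 in WT RA839. Psmb10 read 12.08, 11.99, 11.67 and 11.69 in KO RA839, against 11.98, 11.66, 12.06 and 11.96 in WT RA839. Arrays 1 and 2 were the higher pair in KO cells and, for Psmb8 and Psmb9, the lower pair in WT cells. Psmb8 changed by -0.04 ± 0.19 under RA839 and -0.15 ± 0.19 in DMSO, and Psmb10 by -0.05 ± 0.15 and -0.21 ± 0.15. Irf7, an interferon-induced transcription factor, read 10.54, 11.03, 9.21 and 9.25 in KO RA839, against 7.77, 7.21, 8.62 and 8.98 in WT RA839. It thus had the same higher and lower arrays within each genotype, while every KO array was above every WT array. The part of that split in the genotype values was not tested.

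Of the 16 antigen processing and interferon genes, 3 were higher and 2 lower in KO cells in DMSO, and 4 higher and 3 lower under RA839. Over all genes, 11.2% were higher and 13.8% lower in DMSO, and 14.6% and 15.8% under RA839. Irf7 rose by 1.87 ± 0.53 under RA839 and 1.86 ± 0.53 in DMSO, Nlrc5 by 0.44 ± 0.11 and 0.49 ± 0.11, and Irf8 by 0.48 ± 0.08 and 0.36 ± 0.08. Tap1, a subunit of the peptide transporter, rose by 0.64 ± 0.22 under RA839. Gbp3 fell by 0.89 and 0.75 (SE 0.23 each), and Irf1 fell by 0.60 (SE 0.14) under RA839.

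**Figure D5:**
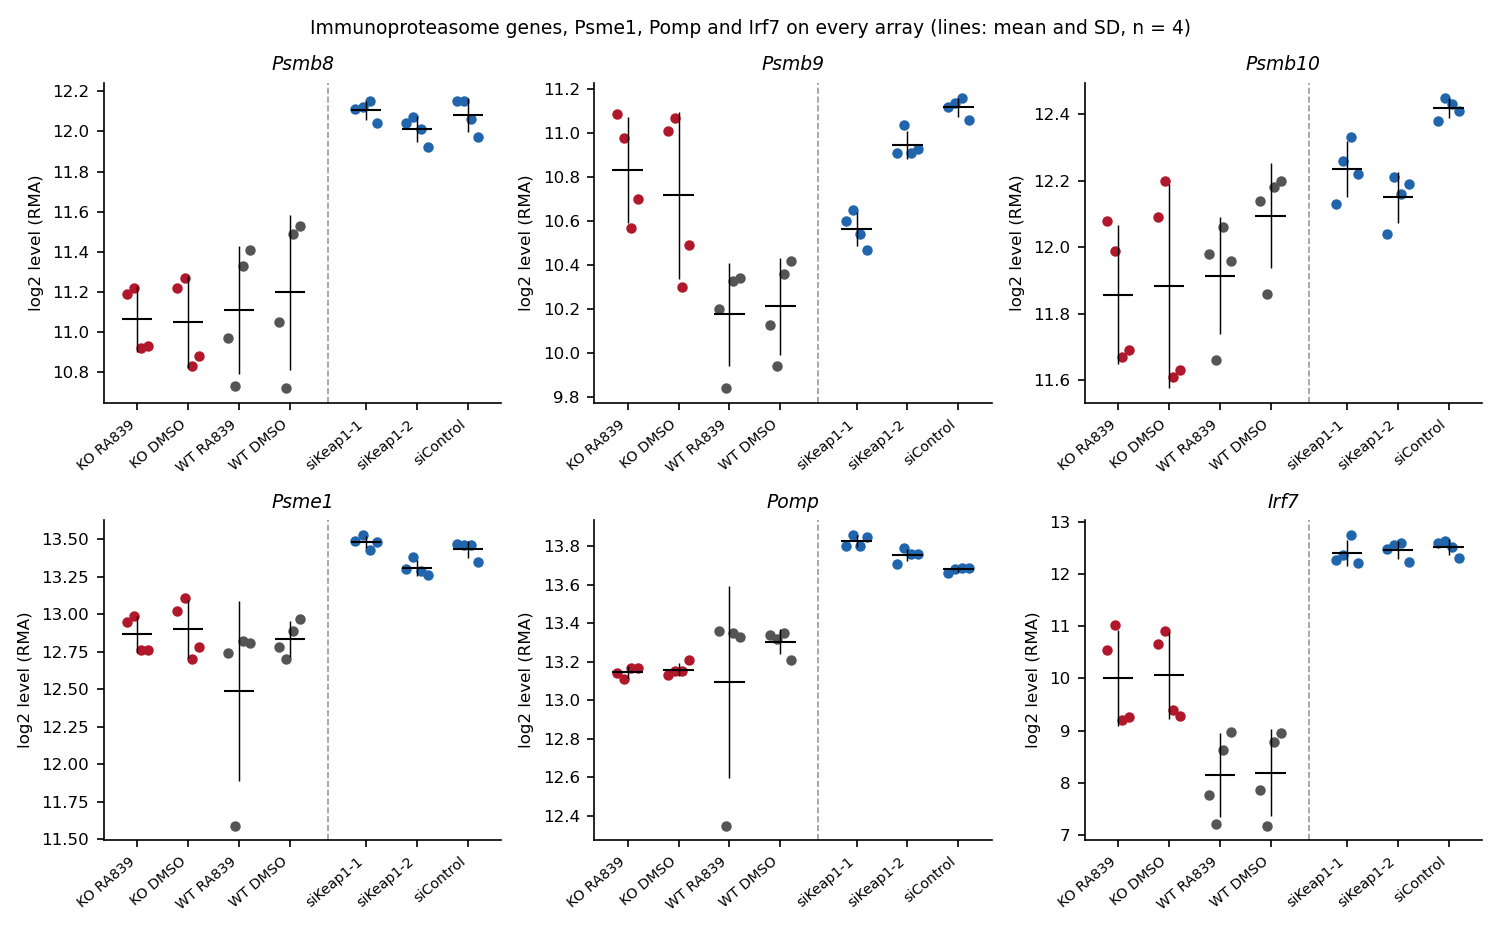
Log2 level of the immunoproteasome subunits, Psme1, Pomp and Irf7 on each array (points, arrays 1 to 4 left to right within a group), with the group mean and SD (n = 4). KO is red, WT grey and the siRNA experiment, which may have been normalized apart, blue. Arrays 1 and 2 are the higher pair in KO groups for Psmb8, Psmb9, Psmb10, Psme1 and Irf7, and WT RA839 array 2 is low for Psme1 and Pomp.

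Among the regulators, 2 of 16 were higher and 2 lower in KO cells in DMSO, and 2 higher and 4 lower under RA839. For all genes the shares were 11.2% higher and 13.8% lower in DMSO, and 14.6% and 15.8% under RA839. Nfe2l1 lay between 11.83 and 12.26 in KO RA839 and between 11.85 and 12.30 in KO DMSO, against 11.16 to 11.63 in WT RA839 and 11.25 to 11.53 in WT DMSO. It rose by 0.71 ± 0.14 (adjusted p = 0.00136) and 0.68 ± 0.14 (adjusted p = 0.00223). Ecpas fell by 0.76 and 0.52 (SE 0.12 each), and Ube3c, a ubiquitin ligase that works on the proteasome, rose by 0.48 ± 0.07 and 0.42 ± 0.07. Sqstm1 fell by 0.62 (SE 0.15) under RA839. Nqo1 fell by 5.06 and 4.83 (SE 0.12 each), Keap1 by 0.51 (SE 0.10) under RA839, and Psmf1 changed by 0.07 ± 0.19 and 0.14 ± 0.19.

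Lower calls in KO cells under either treatment and higher calls after either siRNA were met by 5 of the 49 genes, Psma3, Psmb5, Psmd2, Psmd5 and Psme4, and none had the opposite pattern. How many of all genes had this pattern was not counted, so the 5 cannot be set against a general share. The compound and siRNA experiments share no arrays. For Psma3 the second probe set read the other way between genotypes, and its calls after siRNA were lost in part of the alternatives. The calls of Psmd2 were near the threshold, and none of the calls of Psme4 held with the mean over its probe sets. Whichever array was left out, 5 of the 10 calls in DMSO (Psma3, Psma8, Psmb5, Psmd5 and Psme4) and 8 of the 13 under RA839 passed. Psmb9 was higher in KO cells under RA839 and lower after siKeap1-1. Psmd11 rose after either siRNA but did not pass between genotypes in DMSO (-0.03 ± 0.11) and read -0.30 ± 0.11 under RA839 (adjusted p = 0.0508). That value passed in 10 of 18 alternatives, with -0.37 ± 0.11 (adjusted p = 0.0242) without WT RA839 array 2. Psmc2, Psmb3, Psmd7 and Psmd14, which rose after either siRNA, changed by -0.18 to 0.04 between genotypes in DMSO and by -0.12 to 0.09 under RA839, or -0.31 to 0.14 without WT RA839 array 2, none past the threshold with the arrays as given or without that array. With the mean over its probe sets, Psmb3 was 0.40 higher in KO cells under RA839 (adjusted p = 0.00238).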

How the data were processed

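Gene expression of 28 macrophage samples was taken from a deposited table of 45101 probe sets, whose log2 values the authors made with RMA, per the submitters' processing notes, a method that corrects background, normalizes between arrays and summarises probes. No column was left unused for want of a sample. Array medians (5.61 to 5.71 in the compound and 5.91 to 5.96 in the siRNA experiment) show separate scales, so tests stayed within an experiment. The number of arrays limits the precision. Of the probe sets, 35890 were listed with a gene, 932 with several genes and 9211 with none. Of 34945 with a single gene, 34741 matched RefSeq (GRCm38.p6). The brightest probe set stood for each of 18193 genes (26 of the 49 had several). No 2 arrays were identical (0 pairs).

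limma 3.58.1 in R 4.3.3 fitted 1 coefficient per group and experiment (lmFit, eBayes), with Benjamini-Hochberg adjusted two-sided p-values, and was tested on simulated data. The members and lists were chosen with earlier results of these data known. Named in every comparison were Psmb5 to Psmb10, Psme1, Pomp, Nfe2l2, Keap1, Nqo1, Nfe2l1 and Psmf1, with the 6 highest and 6 lowest members past the threshold, the extremes of each class and up to 4 genes per context list. Besides the macrophage and neutrophil markers, lists of dendritic, T and NK, B, stromal and mast cells were followed. In siKeap1-1, 2 of 6 dendritic markers were lower (6.39% of all genes). In KO cells in DMSO, 3 of 6 stromal markers and 1 of 6 T and NK markers were lower (13.8% of all genes). None of 4 B cell and 4 mast cell markers passed there.

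Same-numbered arrays deviated together within WT (correlations over genes of 0.27 to 0.46), KO (0.66 to 0.70) and the siRNA experiment (0.12 to 0.66), and not between genotypes (-0.29 to -0.01). The numbers come from the labels. The block changed single calls and counts as printed. Protein sequences were not used here.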

Additional observations from a re-analysis of the deposited data

Results flagged for a closer look

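Of 343 groups of 4 arrays (49 genes in 7 groups), 30 (8.75%) held an array whose gap to the nearest of the others, divided by the group's range, was above Dixon's critical value at the 95% level, where chance flags about 1 group in 20. WT RA839 array 2 accounted for 14. It was far below its companions for Pomp (12.35), Psma4 (10.79), Psmb1 (12.27), Psmb5 (12.64), Psmb6 (13.16) and Psmc3 (12.78). It was likewise low for Psmd10 (9.58), Psmd13 (9.54), Psmd14 (12.64), Psmd7 (7.63), Psme1 (11.59) and Psmg3 (9.69), and it was far above them for Psmb3 (13.31) and Psmc4 (13.31).

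The other 16 were spread over 11 arrays. In the compound experiment, KO RA839 array 1 was low for Psmd10 (9.99) and array 3 high for Psme3ip1 (10.78), while KO DMSO array 2 was low for Psme4 (12.11) and array 4 high for Psma7 (12.64). WT DMSO array 1 was high for Psmb1 (12.57) and array 2 low for Psmb10 (11.86). In the siRNA experiment, siKeap1-1 array 3 was high for Psmd2 (12.95) and array 4 low for Psmb7 (12.99), and siKeap1-2 array 1 was low for Psmd3 (9.82) and Psmd6 (13.2). SiControl array 4 was low for Psma4 (11.46), Psmd12 (12.15), Psme1 (13.35) and Psme3 (10.68), and array 1 was low for Psmc5 (10.74) and high for Psmg2 (10.04).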

How the results depend on the processing

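Calls are counts of the 49 genes. The cause of each shift was not tested unless the setting itself has fewer genes, fewer arrays or a stricter threshold. RA839 in KO cells gave 0 calls under every setting. RA839 in WT cells (1 call) gave 0 with only the groups compared, 0 when at least 1.5-fold was required, and 1 to 2 with an array left out. The genotype difference of that response (0 calls) gave 1 with array weights and 0 to 1 with an array left out. KO against WT in DMSO (10 calls) gave 6 with the mean over all probe sets, 5 at an adjusted p under 0.01, 1 with the 1.5-fold minimum and 5 to 10 with an array left out. Leaving WT RA839 array 2 out of that fit, chosen after seeing the data, gave 16, and leaving out both WT arrays numbered 2 gave 13. KO against WT under RA839 (13 calls) gave 8 with only the groups compared, 7 at 0.01, 4 with the 1.5-fold minimum and 10 to 16 with an array left out. SiKeap1-1 (19 calls) gave 12 at 0.01, 1 with the 1.5-fold minimum and 13 to 18 with an array left out. SiKeap1-2 (18 calls) gave 8 with the mean over all probe sets, 8 without probe sets that can match several transcripts, 9 at 0.01, 0 with the 1.5-fold minimum and 10 to 15 with an array left out. SiKeap1-1 against siKeap1-2 (4 calls) gave 7 with a trended and robust prior, 8 among genes at or above the median gene, 2 at 0.01, 0 with the 1.5-fold minimum and 2 to 6 with an array left out.

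With the replicate number as a block, RA839 in WT cells gave 3 calls and siKeap1-1 against siKeap1-2 gave 8. SiKeap1-1 gave 27 calls under the block (24 higher and 3 lower) and siKeap1-2 gave 23 (21 higher and 2 lower). These and the remaining counts stayed within 1.5 times of those without it. Between genotypes the numbers do not pair the arrays. There the block lost Psmg4 in DMSO (adjusted p = 0.059) and added Psmd11 under RA839 (adjusted p = 0.00518).

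Of the values of genes called with all arrays, taken under the alternative settings, 924 stayed past the threshold, 198 fell short and 7 changed sign. Gains are not in these counts. Past the threshold in an alternative only were 12 genes with siKeap1-1, 8 with siKeap1-2 and 6 between the siRNAs. The same held for 11 genes between genotypes under RA839, 8 in DMSO, 3 with RA839 in WT cells and 1 in the genotype difference. Psma3 became 0.06 (DMSO) and 0.03 (RA839) between genotypes with the mean over all probe sets, and 0.46 and 0.39 without probe sets that can match several transcripts. In DMSO Psmd9 became 0.43 and Psme3 0.08, and with siKeap1-2 Psma1 became -0.01, all with the mean over probe sets. Dim probe sets limit the last of these. Of the class medians under these settings, 85 stayed within the spread between arrays and 11 did not.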
